A study of Arabidopsis thaliana with 47 samples.

Results

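MORC7-FLAG peaks of Arabidopsis plants without Pol IV and Pol V, the nrpd1 nrpe1 double mutant, were set against the MORC7-FLAG peaks of wild type, to see which wild-type sites were kept, lost or joined by new sites. Members were the peaks on the 5 nuclear chromosomes whose q value was below 0.01 (the −log10 of q above 2) and whose fold enrichment over the background of the peak call was above 2. Both nrpd1 nrpe1 libraries were used, with 5752 and 4048 peaks in replicates 1 and 2, and the 3 wild-type libraries, with 8173, 8259 and 7952 peaks, out of 47 samples in the whole series. The reference set was 6424 wild-type regions, merged intervals in which at least 2 of the 3 wild-type libraries had a peak.

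MORC proteins are GHKL-type ATPases that help to keep genes and transposons silent. In RNA-directed DNA methylation (RdDM), Pol IV, whose largest subunit is NRPD1, makes the transcripts that become small interfering RNAs, and Pol V, whose largest subunit is NRPE1, makes scaffold transcripts at the target loci. The small RNAs pair with these scaffolds and the methyltransferase DRM2 is brought to the DNA, so the comparison asks where MORC7 sits on chromatin when neither polymerase is present.

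All plants were Arabidopsis thaliana of the Columbia accession, and floral tissue of 5 to 6 weeks was labelled as the source. MORC7 was expressed from its own promoter with a 3xFLAG tag (pMORC7::MORC7-3xFLAG) and precipitated with an antibody to FLAG. The wild-type libraries came from this transgene in a morc7-1 mutant, so "wild type" means wild type for the RdDM genes. For the double mutant, the transgene had been crossed into nrpe1-11 nrpd1-4, a pair of insertion alleles, and F2 or F3 progeny lacking both functional genes were taken, with the transgene on 1 or both copies of its chromosome. The same scheme gave the nrpd1 (2), nrpe1 (2) and dms3 (3) libraries used below for comparison, DMS3 being a Pol V cofactor. A MORC7-FLAG library in met1, which lacks the CG maintenance methyltransferase (1), and FLAG ChIP of untagged wild type (2) were used as well. MORC4-FLAG (2), Pol II (1) and the HA-tagged DMS3 zinc finger fusion ZF108-DMS3 (1) served as other comparisons. Transcript levels came from RNA-seq libraries labelled wild type (3), a label that names no MORC7-FLAG transgene. Replicates were described as independent ChIPs, and the genotype of a library cannot be checked from a list of peaks.

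The sequences below are shown because some of the strongest new and lost sites shared an exact run of bases within 60 bases of their summits, while no run this long was shared by the strongest kept sites. Each is a window of 121 bases centred on a summit, read 5′ to 3′ from the TAIR10 chromosomes (RefSeq TAIR10.1), and capitals mark the run held by every window of its set. The first 4 are new sites, the next 3 lost sites, each numbered in its class by fold rank.
new 1, chr5:14003754-14003874, plus strand: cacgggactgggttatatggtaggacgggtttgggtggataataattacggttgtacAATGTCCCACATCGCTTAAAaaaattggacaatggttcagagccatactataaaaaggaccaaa
new 2, chr5:14847529-14847649, plus strand: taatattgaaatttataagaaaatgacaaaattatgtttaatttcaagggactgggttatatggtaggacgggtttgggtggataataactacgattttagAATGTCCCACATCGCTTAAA
new 5, chr1:16988664-16988784, plus strand: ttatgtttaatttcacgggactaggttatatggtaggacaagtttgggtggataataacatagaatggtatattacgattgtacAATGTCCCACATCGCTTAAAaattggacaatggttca
new 7, chr5:15386763-15386883, minus strand: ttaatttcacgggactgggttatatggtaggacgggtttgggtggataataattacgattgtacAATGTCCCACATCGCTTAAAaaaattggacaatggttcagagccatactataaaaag
lost 1, chr2:13404426-13404546, plus strand: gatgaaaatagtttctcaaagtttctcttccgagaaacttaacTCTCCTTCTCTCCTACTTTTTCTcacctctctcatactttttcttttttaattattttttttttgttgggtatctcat
lost 2, chr3:21026399-21026519, plus strand: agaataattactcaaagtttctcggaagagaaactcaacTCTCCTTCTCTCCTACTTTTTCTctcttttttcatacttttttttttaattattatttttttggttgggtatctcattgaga
lost 3, chr3:4494190-4494310, plus strand: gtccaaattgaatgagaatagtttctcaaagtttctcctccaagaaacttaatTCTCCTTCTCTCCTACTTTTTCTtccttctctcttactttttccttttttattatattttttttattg

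The 5 libraries differed in the size of their lists and peaks, and the depth behind them is unknown. In wild type the peaks covered 7.32, 1.97 and 10.8 Mb with median widths of 649, 163 and 981 bp. In nrpd1 nrpe1 they covered 8.26 and 3.20 Mb with medians of 999 and 542 bp, so wild-type replicate 2 stood apart by its narrow peaks. The list of wild-type replicate 1 also differed in form, since 4110 entries repeated others and its lowest −log10 q was 2.00. Wild-type replicate 3, nrpd1 nrpe1 replicate 1 and both nrpd1 libraries share a date in the names of their peaks, and nrpd1 nrpe1 replicate 2 has another. The untagged libraries had 230 and 965 peaks, and 0.233% and 1.74% of the wild-type regions overlapped one.

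To compare libraries on like terms, the regions with a peak in both other wild-type libraries were used to score each wild-type library, and each mutant library was scored on the same 3 sets and averaged. Recovery, the share of these regions with a peak, was 95.9%, 51.3% and 74.6% in wild-type replicates 1 to 3 and 75.7% and 49.9% in nrpd1 nrpe1 replicates 1 and 2. Both nrpd1 nrpe1 values thus lay near the values of a wild-type library, replicate 1 beside wild-type replicate 3 and replicate 2 beside wild-type replicate 2. The means were 62.8% ± 18.3 (SD, n = 2) and 73.9% ± 22.3 (SD, n = 3), and the difference of -11.1 percentage points did not pass an exact permutation test (two-sided p = 0.6, with 0.2 as the smallest p that 2 libraries against 3 allow, Benjamini-Hochberg adjusted p = 0.6 over 4 comparisons). Leaving out wild-type replicate 1 turned the difference to 0.71 and leaving out nrpd1 nrpe1 replicate 2 turned it to 1.77. It was 1.20 under a stricter threshold (q below 0.001, fold above 3). It grew to -24.1 at the most when another library was left out. With 2 and 3 libraries a difference in recovery between genotypes was therefore not detectable.

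**Figure D1:**
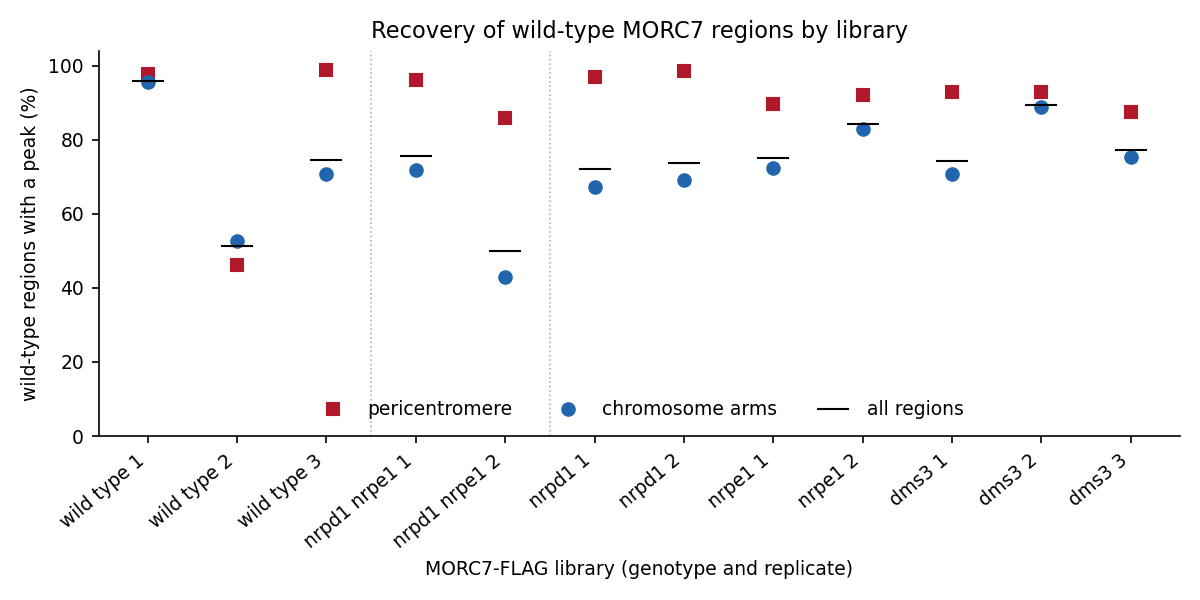
Share of wild-type regions with a MORC7 peak (y axis, percent) in each MORC7-FLAG library (x axis), for pericentromeres (squares), chromosome arms (circles) and all regions (dashes). In both nrpd1 nrpe1 libraries the squares (96.0% and 85.8%) sat above the circles (71.8% and 42.9%), and the 3 wild-type libraries spanned 51.3% to 95.9% over all regions.

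Of the 6424 wild-type regions, 2714 (42.2%) had a peak in both nrpd1 nrpe1 libraries and are called kept, 1643 (25.6%) had one in a single library, and 2067 (32.2%) had one in neither and are called lost. Among the regions found in a single library, 1598 were found in replicate 1 and 45 in replicate 2, so replicate 2 held nearly a subset of what replicate 1 held. Conversely, 95.2% (replicate 1) and 94.1% (replicate 2) of the double-mutant peaks met a peak of at least 1 wild-type library. Of 3086 regions with a peak in both nrpd1 nrpe1 libraries, 1545 overlapped a peak of all 3 wild-type libraries, 1142 of 2, 341 of 1 and 58 (1.88%) of none, and these 58 are called new. The classes follow from the peak calls of the nrpd1 nrpe1 libraries, so their sizes are given without a test.

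The counts depended on single libraries, in part because leaving one out changes the rule of a class. With 1 nrpd1 nrpe1 library, the kept, lost and new calls rest on that library alone. Without replicate 2 the kept regions numbered 4312 of 6424, and without replicate 1 the lost regions numbered 3665. With 2 wild-type libraries a region needed a peak in both, so the reference set shrank. Leaving out wild-type replicate 1 gave 1561 kept and 466 lost of 2849 regions. Leaving out replicate 2 gave 1082 lost of 5324 regions, and leaving out replicate 3 gave 1638 kept and 1327 lost of 3870 regions. The new regions numbered 386 when wild-type replicate 3 was left out, 238 without nrpd1 nrpe1 replicate 1 and 278 without its replicate 2.

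A call of lost leaned on which wild-type libraries had seen the region. Of 982 regions with peaks in wild-type replicates 1 and 2 but not 3, 92.8% were lost, against 26.6% of 2592 regions seen in replicates 1 and 3 and 14.4% of 2732 regions seen in all 3. Of the 118 regions seen in replicates 2 and 3, 62.7% were lost. Wild-type replicate 3, the library that shares a peak-name date with nrpd1 nrpe1 replicate 1, had a peak at 99.7% of kept and 55.9% of lost regions, and the part of this in the losses was not tested.

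Lost regions often kept a weaker peak below the threshold. In replicate 1, 1122 of the 2067 lost regions (54.3%) overlapped a deposited peak that missed the threshold, with a median fold of 1.77. In replicate 2 only 44 (2.13%) did, with a median fold of 1.81. The 935 regions (45.2%) that remained had no deposited peak in either list, and 79 of these had a peak in all 3 wild-type libraries.

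The double-mutant libraries held a larger share of their peaks around the centromeres than the wild-type libraries did. The pericentromeres, defined by low gene density, made up 14.3% of the genome (17.0 Mb) and held 15.5%, 11.6% and 20.7% of the peaks of the wild-type replicates. In nrpd1 nrpe1 they held 22.6% and 31.5%, above every wild-type library. The other mutants had 24.2% and 25.4% (nrpd1), 23.8% and 16.7% (nrpe1), 21.3%, 13.9% and 17.0% (dms3) and 26.0% (met1). A share above every wild-type library was thus not particular to the double mutant. The double-mutant lists were also shorter than the wild-type lists. In wild type alone, pericentromeres held 16.2% of the regions, 24.1% at the stricter threshold and 26.6% with the 2000 peaks of lowest q value per list. The part of list length in these shares was not tested. Of 1042 pericentromeric regions 73.4% were kept and 81 (7.77%) lost, whereas of 5382 regions in the arms 36.2% were kept and 1986 (36.9%) lost.

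The same contrast held for each chromosome. The kept share ran from 69.9% to 77.0% in the 5 pericentromeres and from 31.6% to 44.1% in the 5 pairs of arms. Among the arms, chromosome 2 had the highest kept share (44.1%) and chromosome 5 the lowest (31.6%).

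On the like-scored sets, recovery in pericentromeres and arms was 96.0% and 71.8% in nrpd1 nrpe1 replicate 1 and 85.8% and 42.9% in replicate 2. In wild type it was 97.7% and 95.5% in replicate 1, 46.2% and 52.5% in replicate 2, and 98.9% and 70.7% in replicate 3. The gap of 24.2 points in nrpd1 nrpe1 replicate 1 was thus smaller than that of wild-type replicate 3 (28.2 points), while the 42.9 points of replicate 2 exceeded all 3 wild-type libraries. The gap averaged 33.5 ± 13.2 points in the double mutant (SD, n = 2) and 8.07 ± 18.0 points for wild type (SD, n = 3), a difference of 25.4 points that did not pass the exact permutation test (two-sided p = 0.4, adjusted p = 0.6).

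The lost share was larger for sites in and near protein-coding genes than for sites far from them. By the midpoint of the region, 593 of 1293 regions inside protein-coding genes (45.9%) were lost and 27.2% kept, and of 1984 regions within 1 kb upstream of such a gene 40.5% were lost and 33.2% kept. Downstream regions (708) came next, with 32.8% lost and 36.9% kept. Of 2005 regions outside all genes and farther than 1 kb from a protein-coding one, by contrast, 17.7% were lost and 59.4% kept, and of 434 regions inside other annotated genes, such as pseudogenes and non-coding RNA genes, 19.4% were lost and 58.1% kept.

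On the like-scored sets, recovery inside protein-coding genes and farther away was 64.7% and 87.9% in nrpd1 nrpe1 replicate 1 and 35.7% and 66.9% in replicate 2. In wild type it was 96.8% and 97.6% in replicate 1, 59.6% and 49.5% in replicate 2 and 63.4% and 86.8% in replicate 3. The gap of wild-type replicate 3 (23.4 points) was thus close to that of nrpd1 nrpe1 replicate 1 (23.2 points), and the other wild-type libraries had 0.825 and -10.1 points.

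This order was also present outside the pericentromeres. Within the arms, 48.0% of the regions inside protein-coding genes and 43.2% of the upstream regions were lost, against 22.4% of those farther away. Within the middle quintile of wild-type fold rank the lost shares were 34.0% inside protein-coding genes and 18.9% farther away.

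Lost regions lay closest to the starts of genes. The median distance from the region to the nearest start of a protein-coding gene was 640 bp for lost, 1038 bp for 1-library, 1625.5 bp for kept and 2304.5 bp for new regions. A start within 500 bp was present at 45.0% of lost, 20.3% of kept and 12.1% of new regions.

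The genes at lost sites also had more transcript in wild type. For protein-coding genes that start within 1 kb of a lost region, the median level in 3 wild-type RNA-seq libraries was 8.54, 8.10 and 8.60 TPM (transcript abundance scaled to gene length and library total), and 77.1%, 76.6% and 78.1% of the 1249 genes reached 1 TPM. At kept regions the medians were 3.25, 3.20 and 3.20 TPM over 943 genes, close to the 3.48, 3.31 and 3.48 TPM of all 26712 protein-coding genes in the table. The medians of the 11 such genes at new regions were 0 TPM in each library. These RNA libraries may not match the tissue of the ChIP. For RNA-seq the paper's methods name floral tissue of 3-week-old seedlings, whereas the labels give floral tissue of 5 to 6 weeks. Although floral tissue is stated as their source, the floral regulators AP1, AP3 and PI were at 0 to 0.11 TPM in these libraries. SEP3 was at 0.18 to 0.59 TPM and AG at 1.16 to 2.11 TPM.

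**Figure D2:**
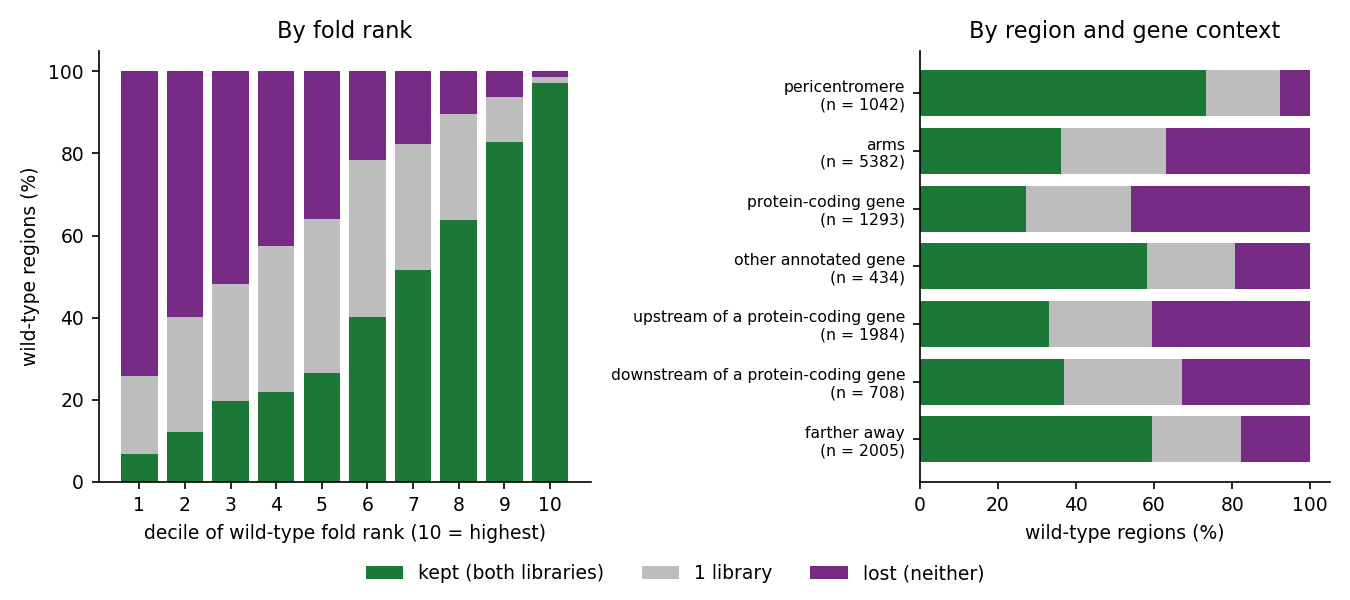
Share of wild-type regions (percent) that were kept, found in 1 library or lost in nrpd1 nrpe1, by decile of wild-type fold rank (left) and by chromosome region and gene context (right, n in brackets). The kept share climbed from 6.70% in the lowest decile to 97.2% in the highest, and it was 73.4% in pericentromeres against 36.2% in the arms.

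How strong a site was in wild type went along with whether it was kept. When the regions were ranked by their mean fold percentile in the wild-type libraries, the kept share was 6.70% in the lowest decile, 26.4% in decile 5, 63.8% in decile 8 and 97.2% in the highest, and the lost share fell from 74.1% to 1.40%. In the highest decile, 625 of 643 regions were kept and 9 were lost.

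The pericentromere stood above the arms at every level of fold. From the lowest to the highest quintile of fold rank, 28.4%, 45.0%, 57.6%, 81.5% and 97.7% of pericentromeric regions were kept, against 7.78%, 17.6%, 29.7%, 52.4% and 86.7% of regions in the arms. Kept regions were also wider, with a median of 1645.5 bp (interquartile range 1111 to 2629.75) against 676 bp (493 to 981) for lost and 834 bp (616 to 1319.5) for new regions, and a wider interval can meet a peak more easily.

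A dependence on fold was also present between wild-type libraries. From the lowest to the highest quintile, recovery rose from 42.2% to 97.9% in nrpd1 nrpe1 replicate 1, from 12.5% to 94.9% in replicate 2, and from 85.6% to 100%, 35.5% to 95.1% and 32.7% to 100% in wild-type replicates 1 to 3. The difference between the top and bottom quintiles averaged 69.1 ± 18.9 points for the double mutant (SD, n = 2) and 47.1 ± 28.6 points for wild type (SD, n = 3). The gap of 22.0 points between these means did not pass the exact permutation test (two-sided p = 0.6, adjusted p = 0.6). With 0.2 as its smallest possible p, that test cannot decide whether the genotypes differ here.

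At sites with a peak in both libraries of a pair, the order of folds was preserved to a varying degree. Spearman's rho was 0.87 between the nrpd1 nrpe1 replicates (2714 regions) and 0.77 between nrpd1 nrpe1 replicate 1 and wild-type replicate 3 (4250 regions). Between nrpd1 nrpe1 replicate 1 and wild-type replicates 1 and 2 it was 0.54 (4270 regions) and 0.41 (2427 regions). The wild-type pairs gave 0.69 for replicates 1 and 3 (5324 regions), 0.51 for 1 and 2 (3714) and 0.45 for 2 and 3 (2850), and nrpd1 nrpe1 replicate 2 gave 0.56, 0.45 and 0.66 with wild-type replicates 1 to 3. Both double-mutant libraries thus came closest to wild-type replicate 3, replicate 1 above and replicate 2 below the value of wild-type replicate 1. These values are across regions, which are not replicates, and folds share the mappability and the background of their place in the genome.

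Among 1549 regions with a peak in all 5 libraries, the median fold was 4.34, 2.95 and 6.08 in wild type and 5.74 and 4.35 in nrpd1 nrpe1. Folds are set by the depth and background of each library, so they are compared here by rank. Replicate 1 of nrpd1 nrpe1 also had a ceiling, with 45 peaks at exactly the same highest fold of 8.67, so the strongest sites cannot be ordered within it. Wild-type replicates 1 and 3 had ceilings too, with 13 peaks at 6.13 and 15 at 8.54.

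The 8 kept regions of highest rank were chosen by their mean fold percentile over all 5 libraries, so their high folds in each follow from the choice. Kept 1, chr2:4119315-4122706, overlapped the pseudogene AT2G10610 in the pericentromere of chromosome 2, with folds of 6.08, 6.29 and 8.54 in wild type and 8.67 and 17.4 in nrpd1 nrpe1. Neither untagged library had a peak there. Kept 5, chr2:1740050-1742355, lay at the start of the protein-coding gene AT2G04940 in the arm, with folds of 6.11, 6.49 and 8.54 and of 8.67 and 14.7. Its wild-type TPM was 9.42, 9.01 and 9.35, so a strong kept site could lie beside a transcribed gene.

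Kept 6, chr2:3526813-3535116, was an interval of 8304 bp that overlapped MCM5, a subunit of the MCM helicase of DNA replication, with folds of 6.11, 6.37 and 8.54 in wild type and 8.67 and 14.7 in nrpd1 nrpe1. By its midpoint, kept 6 lay outside genes and farther than 1 kb from a protein-coding one. It was the only one of the 8 with a peak in an untagged library (fold 2.87 in replicate 2). Of the 8, 5 lay in pericentromeres and 3 in the arms, and the folds of all 8 were at the ceiling of 8.67 in nrpd1 nrpe1 replicate 1, those of 7 at the ceiling of 8.54 in wild-type replicate 3, and between 14.6 and 17.8 in nrpd1 nrpe1 replicate 2.

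Among the lost regions, those of highest rank lay mostly at genes, as did the class. Of all lost regions, 28.7% lay inside protein-coding genes and 38.8% within 1 kb upstream of one. Lost 1, chr2:13403916-13405031, covered the start of ATNTH1 (AT2G31450), an endonuclease III homolog of base excision repair. Its folds were 5.81, 3.54 and 7.47 in wild type, and no peak of any strength was listed in either nrpd1 nrpe1 or either nrpd1 library. In dms3 its folds were 2.87, 3.34 and 2.82, and in met1 5.75.

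Lost 5, chr5:14970868-14972246, covered the start of ARLA1A (AT5G37680), an ADP-ribosylation factor-like small GTPase, with folds of 5.65, 3.10 and 7.51 in wild type. It had no listed peak in nrpd1 nrpe1, nrpd1 or nrpe1, and only peaks below the threshold in dms3 (1.97, 1.93 and 1.60). A site with a high wild-type fold rank thus had no peak above the threshold in any of 9 RdDM mutant libraries.

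Lost 3, chr3:4493394-4495844, overlapped PRA8 (AT3G13720), a prenylated Rab acceptor family gene with 46.2, 45.9 and 42.5 TPM in wild type. Its wild-type folds were 5.11, 3.78 and 6.66, and nrpd1 nrpe1 replicate 1 had a peak of 1.89 below the threshold. Lost 2, chr3:21025907-21026904, lay 214 bp upstream of the non-coding RNA gene AT3G08725, with folds of 5.05, 3.83 and 6.77 and a peak of 1.84 below the threshold in replicate 1.

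Not every lost site was lost in the single mutants. Lost 7, chr3:12593326-12594313, inside the ABC transporter gene ABCG38, had folds of 4.89, 3.50 and 6.20 in wild type and no listed peak in nrpd1 nrpe1. In nrpd1 its folds were 5.12 and 5.51, and in nrpe1 2.55 and 2.59. Lost 4, at AT5G35926, likewise had peaks in both nrpd1 (2.85 and 3.22) and both nrpe1 libraries (2.96 and 2.57), beside a peak of 1.99 in nrpd1 nrpe1 replicate 1 that missed the threshold.

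New regions were few and mostly weak. Their folds ran from 2.00 to 5.22 (median 2.63) in nrpd1 nrpe1 replicate 1 and from 2.00 to 4.28 (median 2.25) in replicate 2, and 24 and 45 of the 58 were below 2.5. A wild-type peak below the threshold was listed at 38 of the 58 (65.5%), 37 of them in wild-type replicate 3 with a median fold of 1.88 and a highest of 1.99. The other 20 had no listed wild-type peak of any strength.

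Their place in the genome was mixed. Of the 58 new regions 12 (20.7%, exact 95% interval 11.2% to 33.4%, counting error only) lay in pericentromeres, against 16.2% of the wild-type regions. Taking all sequence within 3 Mb of the window with the fewest genes as pericentromere gave 43.1% of the new and 32.9% of the wild-type regions. The shares were 42.6% and 14.0% with all deposited peaks, and 40.3% and 16.2% without nrpd1 nrpe1 replicate 1. At the stricter threshold the order turned, with 18.2% of the new and 24.1% of the wild-type regions. Inside protein-coding genes lay 10 (17.2%) and outside genes and farther than 1 kb from a protein-coding one 28 (48.3%), against 20.1% and 31.2% of the wild-type regions.

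The strongest new region, new 1, chr5:14002811-14004381, lay 1395 bp upstream of AT5G35830, just outside the pericentromere of chromosome 5. Its folds were 5.22 and 4.28 in nrpd1 nrpe1, 5.20 and 5.81 in both nrpd1 libraries, 5.16 and 4.26 in both nrpe1 libraries, and 3.90, 3.60 and 3.41 in dms3. In wild type only replicate 3 listed a peak there, with a fold of 1.93 below the threshold. Every RdDM mutant library thus had a peak at a site where no wild-type library passed.

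New 2, chr5:14846473-14848100, lay 788 bp upstream of AT5G37440, with folds of 5.11 and 3.57 in nrpd1 nrpe1 and a wild-type peak of 1.82 in replicate 3. New 5, chr1:16988153-16989283, had no annotated gene within 2 kb, with folds of 3.96 and 2.85 and no listed wild-type peak. New 7, chr5:15386409-15387539, lay 479 bp upstream of SPH8, an S-protein homolog, with folds of 3.45 and 2.62 and no listed wild-type peak. All of these also had peaks in each of the 7 nrpd1, nrpe1 and dms3 libraries, and none in met1 or untagged plants.

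Other new regions were seen in fewer mutants. New 3, chr2:8377311-8377994, at AT2G19350 had folds of 3.72 and 3.22 and a peak in both nrpd1 libraries (2.48 and 2.86) but in no nrpe1 or dms3 library. New 4, chr2:1530437-1531166, at the start of AT2G04400, an indole-3-glycerol phosphate synthase gene of tryptophan synthesis with 25.6, 24.2 and 24.2 TPM, had folds of 3.80 and 3.01 and likewise peaks above the threshold only in nrpd1 (2.30 and 2.50). New 6 was the widest, 7702 bp over AT3G60920, with folds of 3.77 and 2.60.

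New regions also appeared inside the mutated genes themselves. A region at chr1:23354175-23355468 in NRPD1 had folds of 2.55 and 2.41 in nrpd1 nrpe1 and met a peak of no other RdDM mutant library. Elsewhere within 1 kb of NRPD1, nrpd1 replicate 2 had a peak of 2.82 and nrpe1 replicate 2 one of 2.00. The strongest NRPD1 peak of nrpd1 nrpe1 replicate 1 (2.72) lay at the other end of the gene. A region at chr2:16721127-16723195 in NRPE1 had folds of 2.74 and 2.14 and met a peak of 1 other library, nrpe1 replicate 1 (2.79).

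The run of 20 bases shared by new 1, 2, 5 and 7 was rare in the genome. It had 16 exact copies, 4 of them in pericentromeres. It lay in 7 of the 58 new regions and in none of the 6424 wild-type regions, and these counts are a description only, since the run was taken from the strongest new regions. For the same reason the folds of the 7 regions, 2.55 to 5.22 in replicate 1, are not compared with those of the other 51.

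Copies under a peak were counted per library. In wild type 1, 0 and 1 of the 16 copies lay under a peak, and in nrpd1 nrpe1 12 and 10. The nrpd1 libraries had 13 and 14 copies under a peak, the nrpe1 libraries 6 and 11 and the dms3 libraries 11, 9 and 6. In met1, the untagged libraries and Pol II none did. The run was found in the new regions, so its copies there had to have peaks in nrpd1 nrpe1 and none in wild type. For the 9 copies outside the new regions the counts were 1, 0 and 1 in wild type, 5 and 3 in nrpd1 nrpe1, 6 and 7 in the nrpd1 single mutant, 2 and 4 for nrpe1, 4, 3 and 1 for dms3 and 0 for met1. Copies of a repeat resemble each other over more than the run (new 1 and new 7 shared 63 bases without a mismatch), and their repeat family was not analysed here.

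The run of 23 bases shared by lost 1, 2 and 3 had 9 copies in the genome. It was found in lost regions, so its copies there had to have wild-type peaks and none in nrpd1 nrpe1. All 9 lay in wild-type regions, of which 6 were lost, 1 was found in a single nrpd1 nrpe1 library and 2 were kept. In wild type 9, 3 and 9 copies lay under a peak, and in nrpd1 nrpe1 3 and 2. The nrpd1 libraries had 2 and 3 such copies, the nrpe1 libraries 3 and 3, the dms3 libraries 4, 6 and 5 and met1 7. The 3 copies outside the lost regions were all under a peak in wild-type replicates 1 and 3 and in nrpd1 nrpe1 replicate 1. Among the other pairs of the strongest windows, the longest exact run was 11 bases between kept regions and 12 bases between regions of different classes.

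**Figure D3:**
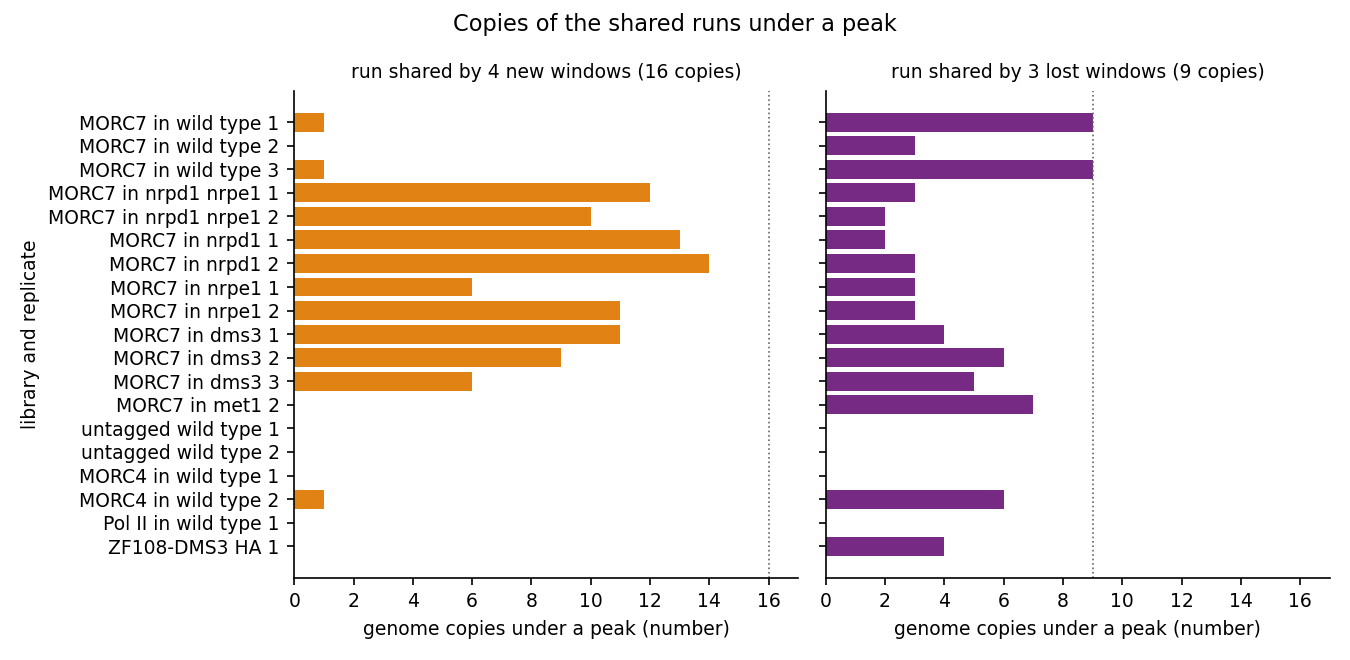
Number of genome copies of each shared run that lie under a peak (x axis, bars) in each library (y axis), for the run of 4 new windows (left) and of 3 lost windows (right), with the total number of copies as a dotted line. For the new run the bars were 12 and 10 in nrpd1 nrpe1 and 0 to 1 in wild type, and for the lost run 3 and 2 against 3 to 9, contrasts set in part by the choice of the runs in new and lost regions.

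Kept and new regions held more repeated sequence than lost regions. The share of the 20-letter words of a 301 bp window at the summit that occur again elsewhere in the genome, on either strand, had a median of 17.2% in kept (interquartile range 3.19% to 45.4%), 3.19% in 1-library (0.355% to 20.2%), 1.77% in lost (0.355% to 10.3%) and 52.7% in new regions (2.22% to 86.9%). Over all wild-type regions it was 5.32%, and over all tiles of the genome 1.06%. More than 50% of the words were repeated in 22.0% of kept, 5.81% of lost and 29 of the 58 new windows. The difference between the kept and lost medians, 15.4 points, was 8.16 points without nrpd1 nrpe1 replicate 2.

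In the arms the order was the same, with medians of 15.6% in kept, 1.42% in lost and 20.0% in new regions and 0.709% in genome tiles. In pericentromeres it was 19.1% in kept, 8.51% in lost and 77.8% in new regions, against 37.9% in genome tiles, so there kept regions were less repeated than their surroundings. Across the quintiles of fold rank the kept medians stayed between 16.3% and 18.6%, whereas the lost medians were 1.06%, 1.42%, 1.77%, 6.91% and 31.9%, the last from 49 regions. The authors kept reads with a single perfect match, which removes reads from identical repeats, and the part of mapping in these shares was not tested.

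**Figure D4:**
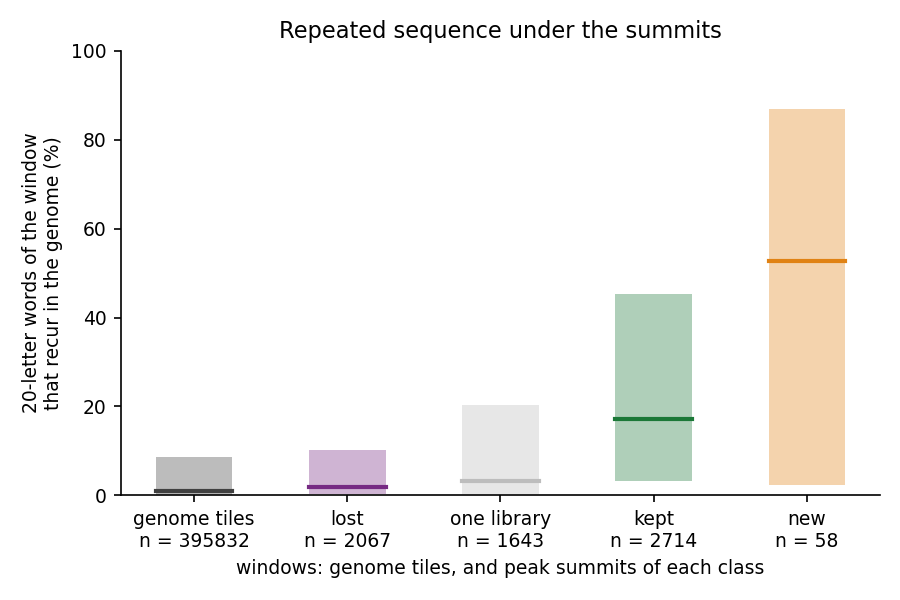
Share of the 20-letter words in a 301 bp window that recur elsewhere in the genome (y axis, percent) for tiles of the genome and for summits of lost, 1-library, kept and new regions (x axis, n below each), with boxes from the lower to the upper quartile and a line at the median. The medians rose from 1.06% in the genome over 1.77% in lost and 17.2% in kept to 52.7% in new regions.

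Base composition differed little between the classes. The median GC content of the summit windows was 32.9% in kept, 34.2% in lost and 34.6% in new regions, against 36.2% in genome tiles. The G box, CACGTG, was present in 5.56% of kept, 13.8% of 1-library, 17.0% of lost and 3.45% of new windows, against 3.27% of the tiles. Upstream of genes it was present in 20.7% of lost and 7.45% of kept windows. The telo box, AAACCCTA on either strand, was in 6.52% of kept, 4.31% of lost and 1.72% of new windows, against 3.88% of the tiles. A match in these letters describes the window only.

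The classes of the double mutant were next read in libraries that had not been used to make them. All these shares rest on the same 3 wild-type lists, which set the regions of every class. Over all wild-type regions, 65.8% and 68.5% had a peak in the nrpd1 libraries, 63.0% and 74.3% in nrpe1, and 63.7%, 82.4% and 66.4% in dms3. Recovery of the 6424 regions was 67.1% and 42.9% in the nrpd1 nrpe1 libraries, with a mean of 55.0% ± 17.1 (SD, n = 2) against 69.1% ± 6.94 (SD, n = 7) in these 7 libraries. The 7 pool nrpd1, nrpe1 and dms3, so their SD and the test do not describe replicates of a single genotype. The difference of -14.1 points did not pass the exact permutation test (two-sided p = 0.278, adjusted p = 0.6, smallest possible p 0.0556), and it fell to -2.02 points without nrpd1 nrpe1 replicate 2 and grew to -26.2 points without replicate 1. Alongside wild-type replicate 3, the nrpd1 libraries and nrpd1 nrpe1 replicate 1 share a peak-name date, and their recovery lay between 65.8% and 68.5%.

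Kept sites were bound in nearly every other RdDM mutant. A peak was present at 98.5% and 99.1% of kept regions in nrpd1, 92.7% and 95.4% in nrpe1, and 95.4%, 96.7% and 91.2% in dms3. All 7 libraries had one at 2291 of the 2714 kept regions (84.4%). In met1 the share was 70.2%, against 61.0% of all wild-type regions, and in the untagged libraries 0.147% and 3.24%.

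Lost sites were bound in fewer and more variable numbers. A peak was present at 16.4% and 19.9% of the 2067 lost regions in nrpd1, 26.5% and 43.8% in nrpe1, and 16.4%, 63.8% and 37.7% in dms3. No other RdDM mutant library had one at 394 (19.1%), and all 7 had one at 9. In met1 48.7% of lost regions had a peak, more than in either nrpd1 library but below its 61.0% of all wild-type regions. The untagged libraries had one at 0.484% and 0.290%. Pol II of wild type had peaks at 37.2% of lost and 15.3% of kept regions, against 26.2% of all wild-type regions. The lists of dms3 replicates 2 and 3 had the form of wild-type replicate 1, with 4768 and 3183 repeated entries and a lowest −log10 q of 2.00. That wild-type library had a peak at 96.4% of lost regions, and the part of list form in the dms3 shares was not tested.

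At new sites the shares were highest in nrpd1. A peak was present at 44 and 49 of the 58 in the nrpd1 libraries (75.9% and 84.5%), at 24.1% and 48.3% in nrpe1, at 39.7%, 31.0% and 25.9% in dms3 and at 12.1% in met1. Both nrpd1 libraries had a peak at 44, all 7 other RdDM mutant libraries at 8 and none of them at 5. The untagged libraries had a peak at none and at 3 (5.17%). The 2 nrpd1 libraries share their peak-name date with nrpd1 nrpe1 replicate 1 but not with replicate 2, and the part of this in the overlap was not tested.

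**Figure D5:**
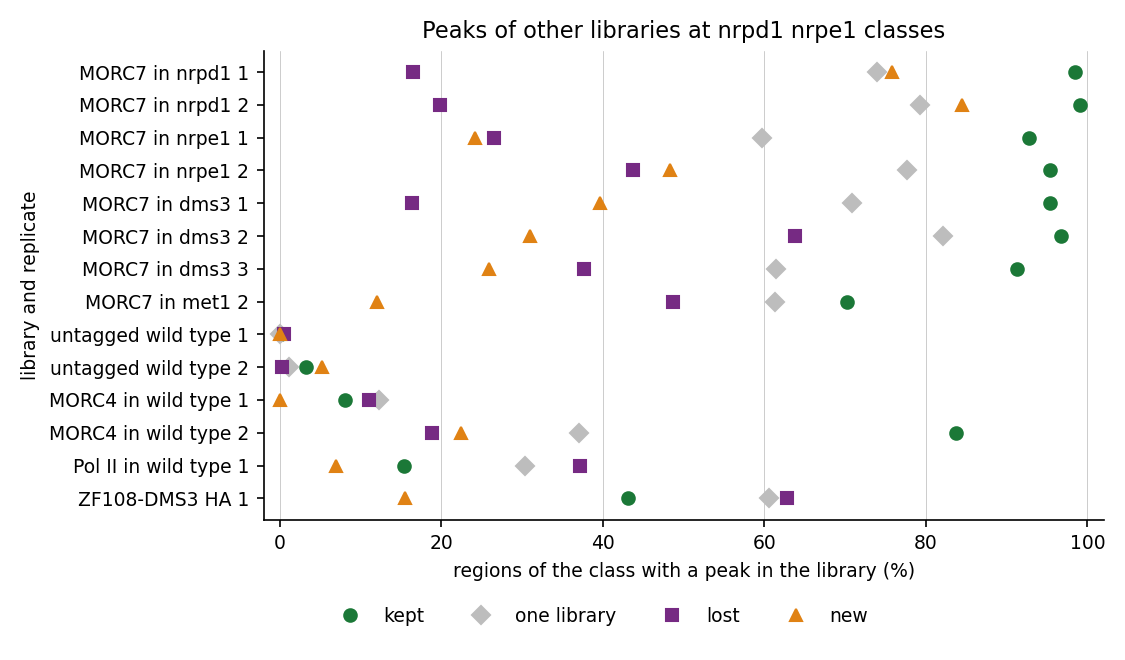
Share of kept, 1-library, lost and new regions (x axis, percent) with a peak in libraries not used to define them (y axis). Kept regions sat at 91.2% to 99.1% in the 7 nrpd1, nrpe1 and dms3 libraries, lost regions at 16.4% to 63.8%, and new regions were highest in nrpd1 (75.9% and 84.5%).

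Of the loci named in studies of RdDM or of MORC genes, some had a peak within 1 kb in both nrpd1 nrpe1 libraries. Among all wild-type regions 42.2% were kept. SDC, an F-box gene silenced through its promoter repeats, had folds of 3.85, 2.78 and 7.22 in wild type and 6.72 and 4.08 in nrpd1 nrpe1, so it was bound in all 5 libraries. QQS, an orphan gene with a role in starch metabolism, had 4.19, 2.79 and 7.56 and then 3.89 and 2.50. The pseudogene AT4G26360 had 5.34, 3.17 and 5.61 and then 5.03 and 5.02.

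Other loci had weaker signals that one of the libraries missed. FWA, a homeodomain gene that delays flowering when it is expressed, had folds of 2.06 and 3.37 in wild-type replicates 1 and 3, 2.55 in nrpd1 nrpe1 replicate 1, and no listed peak in wild-type replicate 2 or nrpd1 nrpe1 replicate 2. ROS1, a DNA glycosylase that removes methylcytosine, had 3.35, 2.66 and 4.43 in wild type, 2.43 in nrpd1 nrpe1 replicate 1 and a peak of 1.72 below the threshold in replicate 2, while a weaker wild-type region inside the gene was lost. Within 1 kb of EPF2, a stomatal patterning peptide, the folds were 2.45, 2.30 and 4.12 in wild type and 5.54 in nrpd1 nrpe1 replicate 1. No peak of replicate 2 lay within that reach, but one met the same wild-type region farther out, and that region was kept. SUP and MEA had no peak above the threshold in any of the 5 libraries.

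Of the MORC genes, MORC6 had a peak upstream in every library, with folds of 5.28, 4.78 and 8.39 in wild type and 7.64 and 6.20 in nrpd1 nrpe1. Upstream of MORC5 the peak of wild-type replicate 3 (3.27) lay in a kept region with folds of 3.71 and 2.70 in nrpd1 nrpe1, while the peak of 3.04 in wild-type replicate 1 lay past the other end of the gene in a lost region. MORC6 likewise had a lost region at its other end. MORC7 had 6.03, 6.53 and 5.01 in wild type and 5.26 and 11.8 in nrpd1 nrpe1, over the whole gene, but its sequence is also carried by the transgene. MORC1 and MORC2, which are neighbours, shared a single peak of 2.42 in wild-type replicate 2, and MORC4 had none.

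Of 17 genes of the RdDM pathway, 6 (35.3%) lay within 1 kb of a wild-type region, against 24.1% of all protein-coding genes. CLSY1, which helps to bring Pol IV to its sites, and SUVH9, which helps to bring Pol V, were near a kept region. NRPD2A, the second subunit shared by both polymerases, and DCL3, which cuts the small RNAs, were near a region found in 1 library. AGO6, which binds small RNAs, and IDN2, which binds RNA in the same pathway, were near a lost one. NRPD1 and NRPE1 were near a new region, as above. Of 8 genes of DNA methylation and demethylation, none lay near a kept region and 4 near a lost one, the glycosylases ROS1, DML2 and DME and the methyltransferase CMT2. ROS1 was also near a region found in 1 library. Among all 27444 protein-coding genes, 9.78% lay near a kept, 6.74% near a 1-library, 9.40% near a lost and 0.153% near a new region.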

How the data were processed

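MORC7-FLAG ChIP-seq was compared between nrpd1 nrpe1 (2 libraries) and wild type (3). Per the paper's methods, 50 bp reads were mapped to the TAIR10 genome by the authors (Bowtie2 2.1.0) and retained only where the match was unique and perfect. Samtools 1.9 served to take out duplicates, and MACS2 2.1.1 to call peaks. The control of each call is not given in the sources used here. The authors deposited 1 peak list per library, although the paper's own calls used pooled reads, and gave each peak a fold enrichment (a ratio) and, as −log10, a p-value and a q-value. The deposited RNA-seq values are TPM. Read totals are not part of the lists, so depth is unknown.

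Repeated entries were merged and peaks selected as stated above. A wild-type region was a merged interval with peaks of at least 2 libraries, and an overlap needed 1 bp. Gene positions came from RefSeq TAIR10.1, without transposable elements. The pericentromere was the stretch of 500 kb windows around the window with the fewest genes on each chromosome in which the gene number stayed below 50% of the median of the chromosome. Recovery was compared by exact permutation tests over libraries, two-sided. Named regions were the 8 of highest mean fold percentile in each class. It was taken over all 5 libraries (kept), the wild-type libraries with a peak (lost) or both nrpd1 nrpe1 libraries (new). Named loci and gene lists are given in full. The members and lists were chosen with earlier results of these data known. Python 3.11.15, NumPy 2.4.6, SciPy 1.17.1, pandas 2.3.3 and matplotlib 3.10.9 were used, and the overlap code was tested on simulated intervals. Alternatives tried were other thresholds, overlaps, numbers of libraries per region and pericentromere definitions, removal of regions with an untagged peak, the replicate number as a block and each library left out. All other samples of the series were not analysed here.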

Additional observations from a re-analysis of the deposited data

How the results depend on the processing

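The recovery difference between nrpd1 nrpe1 and wild type (-11.1 points) turned to 1.20 under the stricter threshold (q below 0.001, fold above 3), and ranged from -24.1 to 1.77 when a library was left out (0.71 without wild-type replicate 1, 1.77 without nrpd1 nrpe1 replicate 2). The kept count (2714) was 1274 at that threshold, 1122 when each list was limited to its 2000 peaks of lowest q value and 1549 when all 3 wild-type libraries were required, and 1561 to 4312 with a library left out. The lost count (2067) was 539, 391 and 393 under the same settings, 7393 with a peak in any wild-type library, 935 without any deposited nrpd1 nrpe1 peak, and 466 to 3665 with a library left out. The reference set (6424) changed as well, to 2295, 1683 and 2732 regions under the first 3 settings and 12959 with any wild-type library. It was 2849, 5324 or 3870 regions without wild-type replicate 1, 2 or 3. The new count (58) was 288 with those 2000 peaks per list, 20 without any deposited wild-type peak, and 61 to 386 with a library left out. The pericentromeric share of new regions (20.7%) was 42.6% with all deposited peaks, 43.1% within 3 Mb of the gene-poorest window, and 20.5% to 40.3% with a library left out. With a library left out, their share inside protein-coding genes ranged from 11.4% to 21.0%, the pericentromere gap from 13.6 to 34.8 points, the fold-rank gap from 8.60 to 35.3 points and the difference from the other RdDM mutants from -26.2 to -2.02 points. Other settings gave protein-coding shares of 8.68% (2000 peaks per list) to 24.1% (all deposited peaks). Under the planned settings, tested differences kept their direction and counts and shares their size 77 times, counts and shares moved 23 times and a difference reversed 3 times. Some of the 77 could not have come out otherwise. The number of wild-type libraries required per region does not enter the new regions. Requiring all 3 leaves the tested differences from wild type as they were. A tested difference that kept its sign could still change in size, as the recovery difference did, to -1.80 with 2000 peaks per list, and the fold-rank gap, from 22.0 to 6.05 points. After seeing the data, the repeated-word difference between kept and lost medians (15.4 points) and the excess of new-run copies under nrpd1 nrpe1 peaks (10.3 copies) were recomputed. Each kept its direction under every setting tried. For the copies that direction was set in part in advance, since the run was taken from new regions. Their excess fell to 4.5 at the stricter threshold and 5 with 2000 peaks per list. With a library left out the ranges were 8.16 to 14.9 points and 9.33 to 11.3 copies.

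Replicate numbers 1 and 2 occur in both genotypes, but nothing shows that they pair the libraries. With the replicate number as a block, the recovery difference was -10.8, the pericentromere gap 35.5 and the fold-rank gap 32.1 points. Unknown depth, unequal peak widths and 2 mutant libraries limit all counts, and a lost call means a peak below the threshold or none.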
